A study of Mus musculus with 2 samples.

Results

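The genes that remove methyl groups from cytosine were examined as possible binding targets of EGR1 in the mouse frontal cortex. The set held 8 genes, namely the TET dioxygenases Tet1, Tet2 and Tet3, the DNA glycosylases Tdg and Smug1, and the GADD45 family members Gadd45a, Gadd45b and Gadd45g. A peak of the deposited EGR1 list was assigned to a gene when its centre lay in the gene body or within 10 kb of any transcription start site (TSS) of that gene in GENCODE M21. By this rule 14 of the 12014 EGR1 peaks belonged to 5 of the 8 genes, against 39.6% of the 21938 protein-coding genes with at least 1 peak. EGR1 had been profiled by chromatin immunoprecipitation and sequencing (ChIP-seq) in frontal cortices of 6-week-old male mice, F1 hybrids of the 129SvEv and C57BL/6N strains with no engineered allele or treatment named in the labels. Several animals were pooled for each of the 2 ChIP experiments, and the authors merged both into a single list of reproducible peaks. An input DNA library from the same tissue was part of the design, and no processed file of it was analysed here. A peak list holds no expression value, so neither the identity of the tissue nor the level of any gene could be read from it, and neurons and glia were not told apart.

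EGR1 is a zinc finger transcription factor of the immediate early class whose transcript rises rapidly in neurons after synaptic activity, and it recognizes GC-rich DNA. TET proteins oxidize 5-methylcytosine to 5-hydroxymethylcytosine and further to 5-formylcytosine and 5-carboxylcytosine. TDG cuts out both of the latter bases so that base excision repair can restore an unmethylated cytosine, while SMUG1 removes uracil and 5-hydroxymethyluracil from DNA. The GADD45 proteins are small stress- and activity-responsive factors that have been linked to repair-coupled demethylation, and Gadd45b is known as an activity-induced gene of mature neurons.

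The sequences of 5 peaks are given whole because they differ most clearly in how they relate to the EGR1 consensus, which was searched as the exact forms GCGTGGGCG and GCGGGGGCG on both strands. All are mm10 sequence from the GRCm38.p6 assembly, written 5′ to 3′ on the strand of the gene. Capitals mark a stretch that differs from an exact form at 1 base, in either orientation, and a peak without capitals held no such stretch. The Gadd45g peak in the intron at chr13:51847043-51847306 (plus strand) carried the same near-match 3 times. The Tet3 peaks at chr6:83440882-83441145 and chr6:83440462-83440725 (minus strand) were neighbours in the same run, and only the former of this pair held a near-match. The peak beyond the 3′ end of Gadd45b at chr10:80939907-80940030 (plus strand) had its near-match close to the peak centre. The Tet2 peak at chr3:133544780-133544968 (minus strand) had the lowest IDR of the 14. Its label refers to the coding starts of Tet2-201 and Tet2-204, whereas the start of the coding transcript Tet2-205 lay upstream of the peak centre.
Gadd45g, peak in the intron: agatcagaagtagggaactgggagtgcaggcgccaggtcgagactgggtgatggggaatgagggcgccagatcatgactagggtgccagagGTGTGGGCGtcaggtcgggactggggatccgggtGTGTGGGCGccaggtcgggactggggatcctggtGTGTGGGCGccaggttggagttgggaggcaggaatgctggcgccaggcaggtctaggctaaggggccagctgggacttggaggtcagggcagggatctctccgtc
Tet3, peak nearest to the internal start: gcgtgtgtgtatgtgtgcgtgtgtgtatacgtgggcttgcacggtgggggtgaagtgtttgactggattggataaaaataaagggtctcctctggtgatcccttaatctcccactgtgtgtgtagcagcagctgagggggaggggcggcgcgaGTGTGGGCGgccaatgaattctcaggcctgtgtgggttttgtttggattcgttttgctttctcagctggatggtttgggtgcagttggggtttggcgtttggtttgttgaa
Tet3, the next peak of the run: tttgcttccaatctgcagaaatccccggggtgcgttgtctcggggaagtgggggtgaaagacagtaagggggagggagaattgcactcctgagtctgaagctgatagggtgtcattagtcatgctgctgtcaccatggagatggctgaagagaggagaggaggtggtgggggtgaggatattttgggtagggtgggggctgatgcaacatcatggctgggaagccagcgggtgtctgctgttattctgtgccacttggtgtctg
Gadd45b, peak beyond the gene: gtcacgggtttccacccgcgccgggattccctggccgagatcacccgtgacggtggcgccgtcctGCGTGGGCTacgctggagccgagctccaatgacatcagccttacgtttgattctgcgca
Tet2, peak upstream of the coding starts: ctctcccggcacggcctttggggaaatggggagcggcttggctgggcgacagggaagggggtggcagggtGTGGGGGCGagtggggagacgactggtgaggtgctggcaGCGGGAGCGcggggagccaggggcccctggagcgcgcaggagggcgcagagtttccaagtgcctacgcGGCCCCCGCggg

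For the 4 peaks that overlapped untranslated exons, short windows are given around near-matches, each of which differs from an exact form at 1 base. The Tet2 peak on exon 1 held a further near-match, GCGGGGCCG, 6.5 bp from the peak centre, which is not printed. The windows lie at chr3:133544382-133544408 (minus strand), chr10:82629875-82629903 (plus strand), chr10:80930565-80930593 (plus strand) and chr13:51846616-51846644 (plus strand). In the Gadd45b window the capitals cover a pair of overlapping near-matches whose starts were 6 bp apart. This pair lay in the intron, 418 and 424 bp downstream of the start of Gadd45b-203.
Tet2, peak on exon 1: gtcacgtcCGCCCCCTCggcggccgcc
Tdg, peak on exon 1: tgatgtagcaGCGTGGGAGgggccgaggc
Gadd45b, peak in the gene: cctttctcggGCGTGGGTGGGGGCGcccc
Gadd45g, peak on exon 1: ccgccagctgGCGGCGGCGcgccgagcct

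The TET family differed in its peaks. Tet3 had 5 EGR1 peaks, Tet2 had 3, and Tet1 had none. All 8 peaks of the family lay near a start of the gene, and 5 of them were centred within 3 kb downstream of the internal Tet3 start. Of all protein-coding genes, 13.7% had 2 or more peaks by the same rule, 4.82% had 3 or more and 0.802% had 5 or more. Long genes offer a larger window, and among genes at least as long as Tet1 the share with a peak was 61.9%. For genes within the range of lengths of the 8 it was 38.6%. The map of peaks along the 8 genes shows where each peak fell relative to exons and starts.

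**Figure D1:**
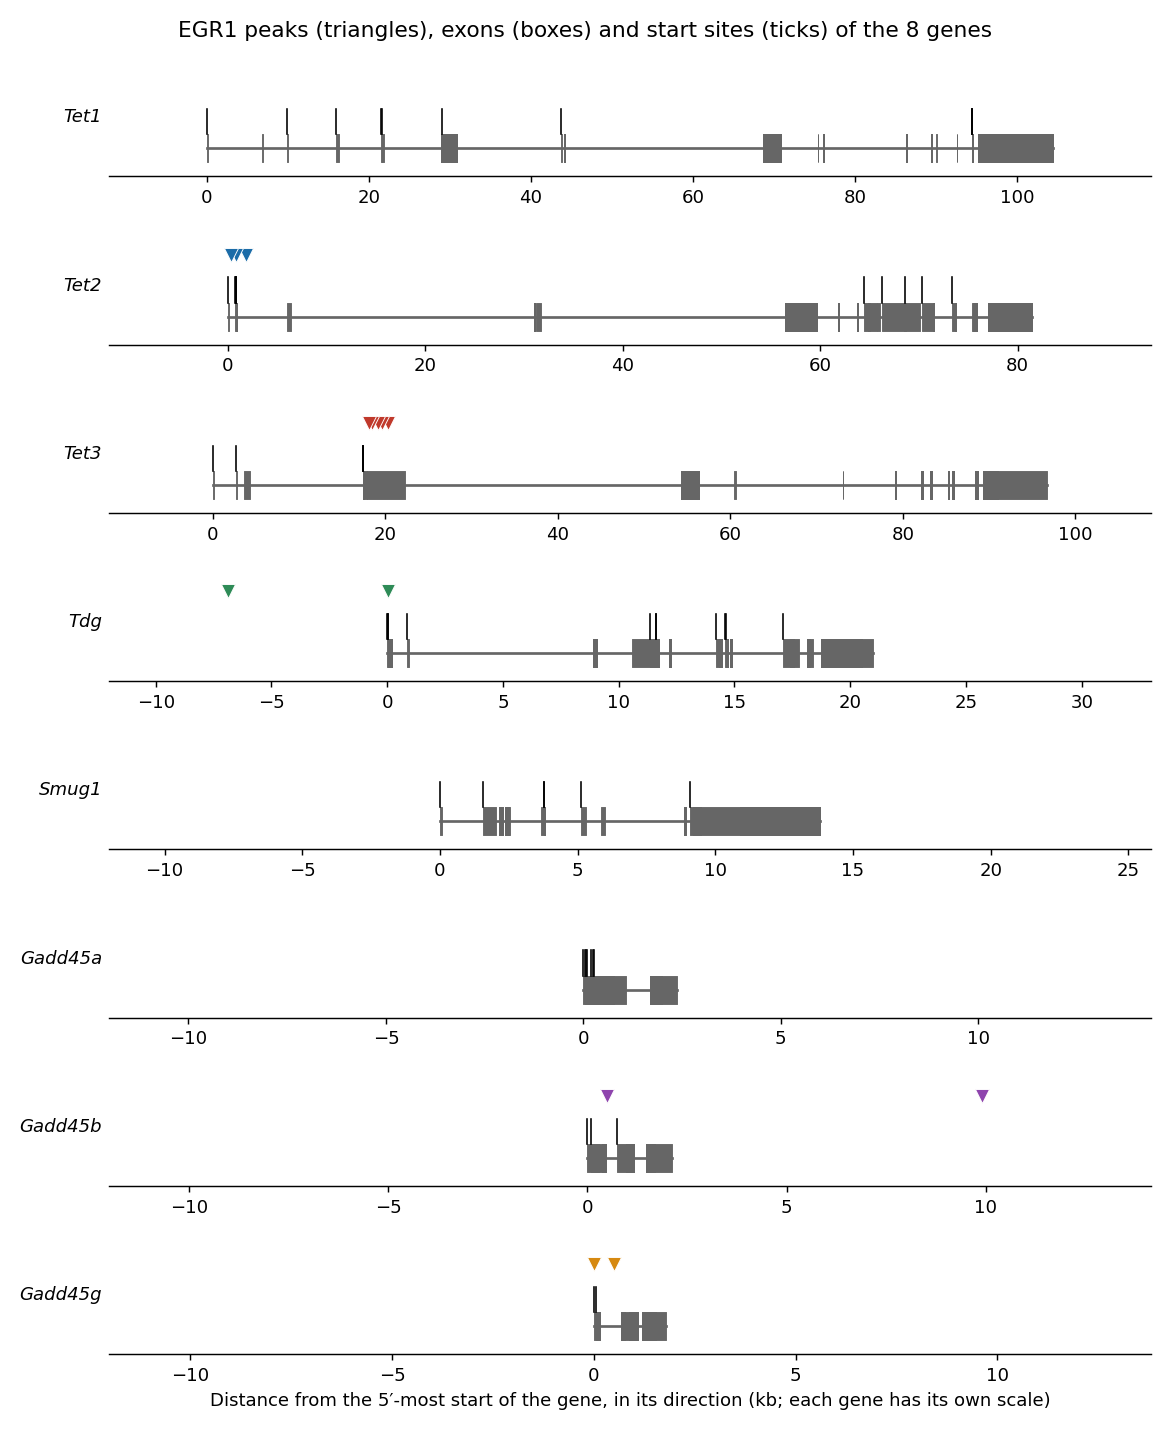
EGR1 peaks along the 8 genes. The x axis is the distance in kb from the 5′-most start of each gene in its own direction, on a separate scale for each gene. Exons are drawn as boxes, starts as ticks and peak centres as triangles. The 5 peaks of Tet3 lie just downstream of its internal start, and no triangle is seen for Tet1, Smug1 and Gadd45a.

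Tet3 (ENSMUSG00000034832.15, chr6:83362373-83459084, minus strand) encodes the TET dioxygenase abundant in neurons, and its gene body spans 96712 bp with 5 annotated TSSs. Its peaks did not lie at the 5′-most starts. They followed the internal start of the coding transcript Tet3-202 at position 83441675, with centres 661.5, 1081.5, 1677.5, 2176.5 and 2874.5 bp downstream of it. The same 5 centres lay 15378.5 to 17591.5 bp downstream of the start of Tet3-203 and 18070.5 to 20283.5 bp downstream of that of Tet3-204. In the annotation they fell in intron 2 of Tet3-202 and intron 3 of Tet3-203, and all 5 were covered by the exon of Tet3-205, a noncoding transcript with a retained intron. The start of the neighbouring noncoding gene B230319C09Rik was 741.5 to 2954.5 bp from the 5 centres, which thus shared the region of the internal Tet3 start.

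The irreproducible discovery rate (IDR), which is read like a q-value, was deposited for each peak. A lower value marks a peak that ranked more consistently high in both ChIP experiments. In order from the internal Tet3 start, the 5 IDR values were 1.68e-05, 9.47e-05, 0.000854, 0.000175 and 0.000654. The peak nearest to the start thus had the lowest value of the run, while the values did not rise steadily with distance, as the third peak had the highest. Among all peaks the nearest one stood at rank 4005 (33.4% of peaks had the same or a lower IDR) and the third at rank 6980 (58.1%). The spread of these values within a gene could not be set against replicate error, because no per-replicate peak list was analysed here.

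The centres of neighbouring Tet3 peaks were 420, 596, 499 and 698 bp apart, and the run spanned 2473 bp. Peaks whose centres followed each other within 1 kb were joined into runs to place this spacing. Of the 11938 peaks on assembled chromosomes, 13.8% lay in runs of 2 or more, 1.75% in runs of 3 or more and 0.293% in runs of 4 or more. Runs of 5 or more held 0.0921% of peaks and numbered 2, the other being 6 peaks over 3331 bp near Nemp1, a gene named after its values were seen. The run consisted of separate calls, each 250 to 264 bp wide. Over the list the median width was 250 bp with quartiles of 250 and 264 bp. Widths this uniform could not tell separate sites from a wide enriched region.

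Tet2 (ENSMUSG00000040943.12, chr3:133463679-133545139, minus strand) encodes a TET dioxygenase without a CXXC domain of its own, and its gene body spans 81461 bp with 10 annotated TSSs. All 3 of its peaks lay at its 5′ starts, the farthest 1052.5 bp from a coding start, and the rest of the gene body held none. The peak at chr3:133544319-133544408 was centred 4.5 bp downstream of the start of Tet2-204, on the untranslated part of exon 1, and had an IDR of 5.1e-07. With 90 bp it was the narrowest of the 14. The peak at chr3:133544780-133544968 was centred 484 bp upstream of the start of Tet2-201, with an IDR of 2.8e-07. Its centre was 265 bp downstream of the start of Tet2-205, a coding transcript outside the GENCODE basic set. It lay 223 bp from the start of the antisense noncoding gene Gm42567, which shares this stretch with the 5′ end of Tet2. The peak at chr3:133543191-133543440 was centred 1052.5 bp downstream of the start of Tet2-204 in intron 1 and had an IDR of 0.001003. The Tet2 peaks therefore held both the lowest and the highest IDR of the 14, at ranks 1658 (13.8%) and 7167 (59.7%) of the list. The steps between their centres were 1048 and 510.5 bp.

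Tet1 (ENSMUSG00000047146.17, chr10:62804570-62908996, minus strand) encodes a TET dioxygenase whose full-length form has a CXXC domain, and its gene body of 104427 bp with 10 annotated TSSs held no EGR1 peak. The nearest peak lay at chr10:62920461-62920721, 11595 bp upstream of the 5′-most Tet1 start. It was centred 42 bp from the TSS of the neighbouring gene Slc25a16 and had an IDR of 5.34e-06. This peak was just outside the 10 kb limit of the rule. The absence of a listed peak means only that no interval there passed the authors' IDR limit of 2.0%, and the depth behind it is unknown.

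The glycosylase genes split as well, with 2 peaks at Tdg and none at Smug1. Tdg (ENSMUSG00000034674.18, chr10:82629828-82650799, plus strand) spans 20972 bp. The peak at chr10:82629736-82629999 was centred 8.5 bp downstream of the start of Tdg-208, across the untranslated exon 1, with an IDR of 7.08e-05 (rank 4851, 40.4%). The peak at chr10:82622816-82623065 was centred 6887.5 bp upstream of Tdg-201 and had an IDR of 3.06e-06 (rank 3180, 26.5%). Its centre was only 14.5 bp from the TSS of the neighbouring gene 1190007I07Rik. It was thus a promoter peak of that gene by position and counted for Tdg only through the 10 kb window.

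Smug1 (ENSMUSG00000036061.10, chr15:103153290-103167092, minus strand) spans 13803 bp with 6 annotated TSSs. Its nearest peak, at chr15:103146926-103147175 with an IDR of 0.000411, lay 10951.5 bp from its nearest TSS and 222.5 bp from that of D930007P13Rik. A further peak at chr15:103182419-103182678, with an IDR of 0.0027, lay 15456.5 bp from a Smug1 TSS, with no other gene's start nearer. Both were outside the 10 kb limit, the nearer of them by under 1 kb.

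Gadd45b and Gadd45g each had 2 peaks, while Gadd45a, the third gene of the family, had none. The 3 genes are short, between 1791 and 2362 bp, and of the protein-coding genes no longer than Gadd45a 18.8% had a peak by the rule. Gadd45g (ENSMUSG00000021453.2, chr13:51846678-51848468, plus strand) had a peak at chr13:51846564-51846813, centred 10.5 bp downstream of the start of Gadd45g-201 on exon 1, with an IDR of 5.57e-06 (rank 3430, 28.6%). Its other peak, in intron 1, was centred 496.5 bp downstream of the same start and had an IDR of 0.000217 (rank 5650, 47.0%). The centres were 486 bp apart, so these peaks also formed a run.

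Gadd45b (ENSMUSG00000015312.9, chr10:80930073-80932204, plus strand) had a peak at chr10:80930432-80930681, centred 395.5 bp downstream of the start of Gadd45b-203 in intron 1, with an IDR of 9.11e-05 (rank 5018, 41.8%). Its other peak lay 9412 bp further on, outside the gene. This distal peak was centred 9807.5 bp downstream of the Gadd45b-203 start and 9156.5 bp downstream of that of Gadd45b-202, just inside the 10 kb limit, and had an IDR of 2.22e-06 (rank 3022, 25.2%). The TSS of the nearest other gene, Gm3828, was 14741.5 bp away, so Gadd45b was the nearest gene to it. A further peak at chr10:80918002-80918253, with an IDR of 6.53e-06, lay 11945.5 bp from Gadd45b and 117.5 bp from the TSS of Lmnb2, and was not counted.

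Gadd45a (ENSMUSG00000036390.8, chr6:67035096-67037457, minus strand) had no peak in its 2362 bp or around its 7 TSSs. The nearest EGR1 peak on the chromosome was 140762.5 bp from a Gadd45a start, at chr6:66896299-66896548 with an IDR of 0.00318, and was centred 0.5 bp from the TSS of Gng12. Of the 3 genes without a peak, Gadd45a was the most remote from any peak, whereas Tet1 and Smug1 each had one under 12 kb from a start.

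**Figure D2:**
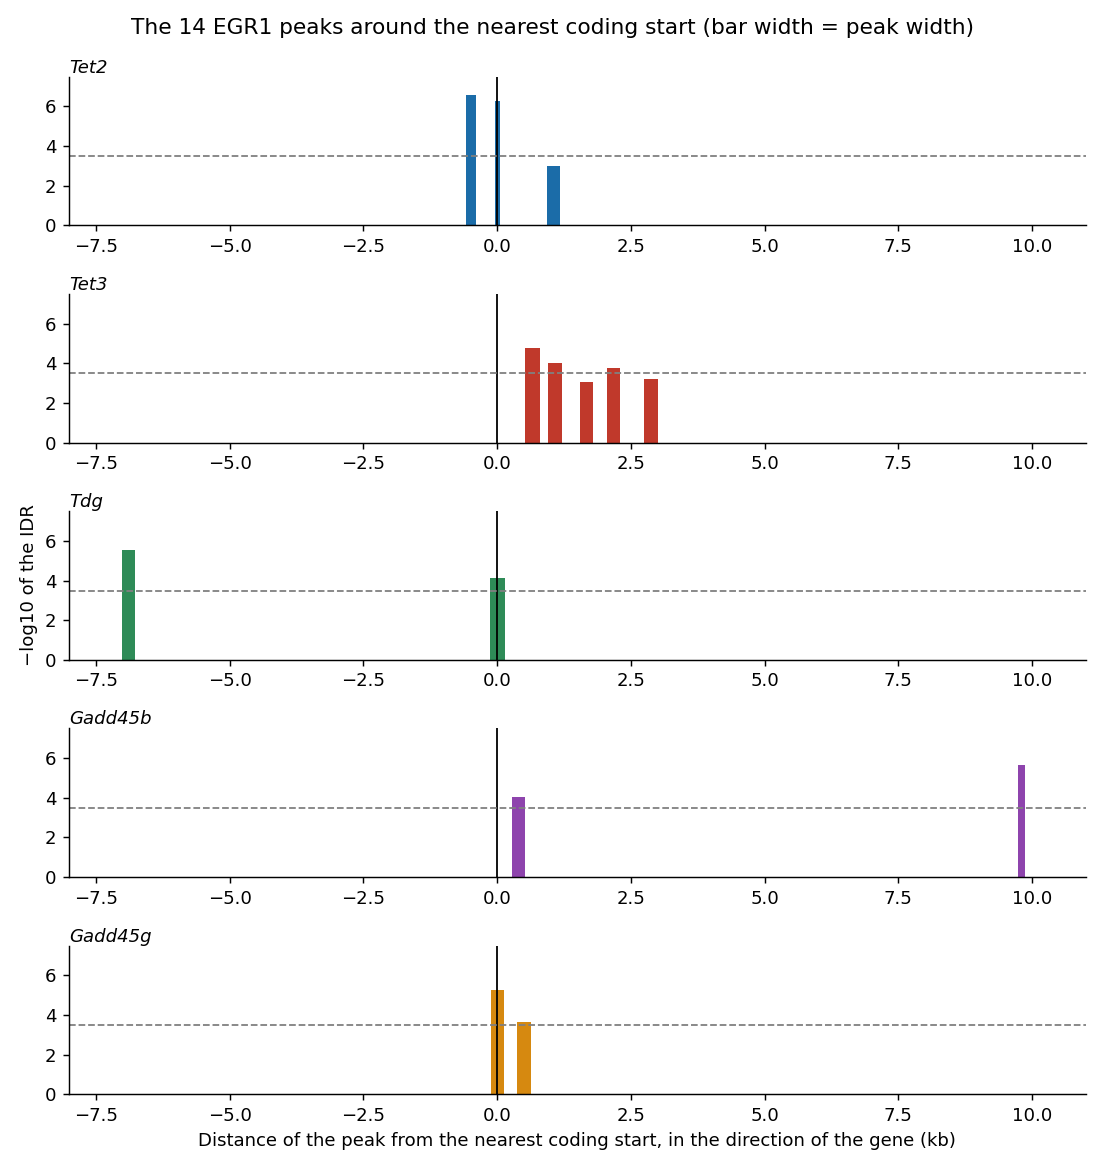
The 14 EGR1 peaks around the nearest start of a protein-coding transcript of their gene in the GENCODE basic set. Tet2-205 is outside that set, so the Tet2 peak 265 bp downstream of its start is drawn upstream of Tet2-201. The x axis is the distance in kb from that start in the direction of the gene, bars have the width of the peak and the height of −log10 of its IDR, and the dashed line is the median over all 12014 peaks (an IDR of 0.000321); 11 of the 14 bars rise above it, and those of Tet2, Tdg and Gadd45g include one across the start itself.

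Promoter peaks were counted apart, because a long gene can collect peaks far from its starts. Of the 8 genes 5 had a peak centre within 2 kb of a TSS, the same 5 that had a peak by the wider rule, against 29.6% of protein-coding genes. Of the 14 peaks 10 (71.4%) were of this kind, against 63.6% of all peaks on assembled chromosomes. The 4 others were the upstream peak of Tdg, the distal peak of Gadd45b and the 2 peaks of the Tet3 run farthest from the internal start. The members' peaks as a group had a median IDR of 8.1e-05, with quartiles of 3.69e-06 and 0.000206. The median was 0.000321 over all 12014 peaks and 9.91e-05 over peaks within 2 kb of a TSS of any gene, so the members' median was close to that of promoter peaks. An IDR of 0.001 or less was found for 13 of the 14, against 59.6% of all peaks, and the exception, the Tet2 peak in intron 1, was just over it at 0.001003. The plot of IDR within the whole distribution shows that the members occupied its middle and upper range and not its extreme.

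**Figure D3:**
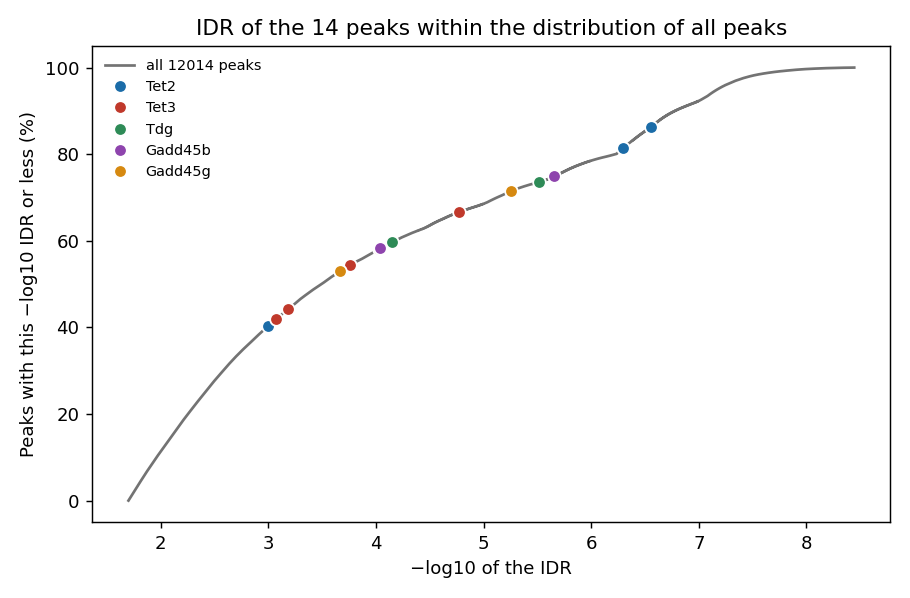
IDR of the 14 peaks within the distribution over all 12014 peaks. The x axis is −log10 of the IDR and the y axis the percentage of peaks with that value or less, the grey line is the whole list and each point is a peak coloured by gene (the point of the Tet3 peak at 9.47e-05 lies under that of Gadd45b at 9.11e-05), with all members between an IDR of 0.001003 and 2.8e-07.

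The exact EGR1 forms were absent from all 14 members' peaks. With 0 of 14 the upper limit of the 95% Wilson interval was 21.5%. The share over all peaks on assembled chromosomes was 16.6%, so the difference from all peaks was within counting error. Among peaks within 2 kb of a TSS the share was 22.2%, slightly above that limit, though not all of the 14 were of this kind. Extending each peak by 100 bp to both sides brought in a single exact form, GCGTGGGCG at chr3:133544753-133544761, while 17.9% of all extended peaks held one. It lay just beyond the edge of the Tet2 peak upstream of the Tet2-201 start. The looser form GCGNGGGNG was found in 5 of the 14 (35.7%), against 39.4% of all peaks. These were the Tet3 peak farthest from the internal start, both Tdg peaks and both Gadd45b peaks, so neither Tet2 nor Gadd45g held it within a peak.

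Near-matches, with at most 1 base different from an exact form, were found in 11 of the 14 peaks (78.6%, Wilson interval 52.4 to 92.4%). The corresponding shares were 69.8% of all peaks and 81.6% of those within 2 kb of a TSS. The 3 peaks without a near-match were the 3 middle ones of the Tet3 run. The 11 peaks held 19 near-matches in all, and 3 or more of them were found in 3 of the 14 peaks (21.4%) against 11.2% of all peaks.

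The changed base is given as the base of the exact form, its position counted from 1 at the 5′ end of that form, and the base in the peak. A change at position 2 occurred in 6 of the 14 peaks (42.9%), against 23.6% of all peaks. The change C2T occurred in 4 of them (28.6%), against 7.97% of all peaks. They included the Tet2 peak upstream of the Tet2-201 start and the Tet3 peak nearest to the internal start. The Gadd45b peak in the gene and the Gadd45g peak in the intron were the others. The change C2A was found in 2 of the Tet2 peaks (14.3%, against 11.9%). A change at position 8 occurred in 4 peaks (28.6%, against 19.7%), namely both Tdg peaks, the Gadd45b peak in the gene and the Tet3 peak farthest from the internal start. One at position 9 occurred in 3 (21.4%, against 8.56%), those upstream of Tet2-201, upstream of Tdg and beyond Gadd45b. Changes at positions 1, 3 and 4 occurred in none, against 10.4%, 5.2% and 3.08% of all peaks. Position 5 was changed in 1 peak (7.14%, against 8.18%) and position 6 in 1 (7.14%, against 5.14%). Position 7 was changed in 2 (14.3%, against 5.6%). With 14 peaks each of these shares rests on few sites and is given as a description.

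The Gadd45g peak in the intron held GTGTGGGCG, the C2T form of GCGTGGGCG, at 3 places. The 3 stretches followed each other at steps of 34 bp, at 36.5, 2.5 and 31.5 bp from the peak centre, within a repeating sequence visible in the printed peak. The same letters stood 25.5 bp from the centre of the Tet3 peak nearest to the internal start. In the distal Gadd45b peak the near-match GCGTGGGCT, with G9T, was 7.5 bp from the centre. The Tdg peak on exon 1 held GCGTGGGAG (C8A), and the Gadd45g peak on exon 1 held GCGGCGGCG (G5C), whereas the upstream Tdg peak, beside 1190007I07Rik, held the 3 forms GCGGGGACG (G7A), GCGGGGGCA (G9A) and GCGGGGGAG (C8A).

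Motifs of other factors were searched in the same way. The cAMP response element TGACGTCA was found in none (1.3% of all peaks) and the core of the NRF1 site, searched as GCATGCGC, in none (2.16%). The AP-1 motif TGANTCA was found in 1, the Gadd45b peak in the gene (6.48% of all peaks), and the E-box CACGTG in 1, the Tdg peak on exon 1 (7.46%). The GC box GGGCGG, which overlaps part of the EGR1 consensus, was found in 4 of the 14 (28.6%, Wilson interval 11.7 to 54.6%). It was found in 55.8% of all peaks and 71.5% of those within 2 kb of a TSS, both above that interval. The interval counts the 14 peaks as independent, though 5 of them form the Tet3 run, where only the peak nearest to the start held the box. Not all of the 14 lay within 2 kb of a TSS. The difference was therefore not tested and is given as a description. The 4 members' peaks with it were the Tet2 peaks on exon 1 and in intron 1, the Tet3 peak nearest to the internal start and the Tdg peak on exon 1. These matches are letters in a window, searched on both strands, and were not tested as bound sites.

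Base composition varied widely among the members' peaks, and 4 of the 5 Tet3 peaks had the lowest CpG ratios of the 14. The CpG ratio is the number of CpG dinucleotides divided by the number that the C and G content of the peak would give. The 5 Tet3 peaks had ratios of 0.677, 0.244, 0.174, 0.359 and 0.196 in order from the internal start, at a GC content of 50 to 61.6%. The 3 peaks on an untranslated exon 1, of Tet2, Tdg and Gadd45g, had ratios of 1.08, 0.996 and 0.852 with 10, 34 and 21 CpG dinucleotides, respectively. The ratio was 0.76 in the Gadd45b peak in the gene and 0.707 in the Tet2 peak upstream of the Tet2-201 start. The upstream Tdg peak (0.628), that in Tet2 intron 1 (0.487) and the Gadd45g peak in the intron (0.48) lay within the range of the Tet3 run. The distal Gadd45b peak, far from any annotated start, had a ratio of 1.09 and so ranked with the exon 1 peaks.

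**Figure D4:**
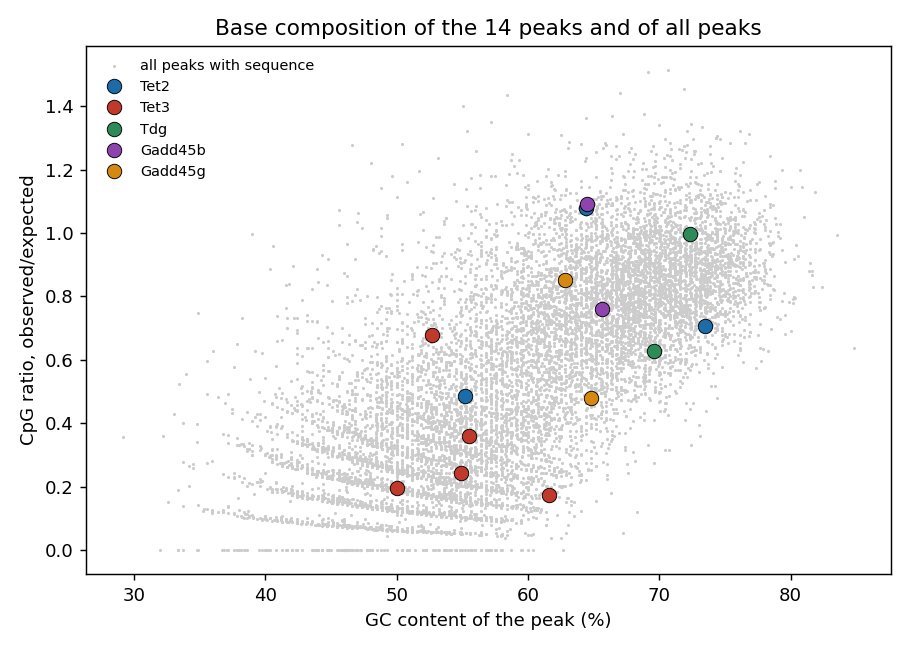
Base composition of the 14 peaks against all peaks on assembled chromosomes. The x axis is the GC content in percent and the y axis the observed to expected CpG ratio, each grey dot is a peak of the list and each coloured point a member's peak, and 4 of the 5 Tet3 peaks lie under a ratio of 0.4 while the highest coloured points belong to Gadd45b and Tet2.

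Over the 14 peaks the median GC content was 63.6% (range 50 to 73.5%) and the median CpG ratio 0.652 (range 0.174 to 1.09). Over all peaks the medians were 60.4% and 0.6, with quartiles of 52.8 and 67.9% for GC content and of 0.312 and 0.825 for the ratio. Over peaks within 2 kb of a TSS they were 65.5% and 0.761. The members' medians lay between both. Repeat sequence, as masked in the assembly, made up 8.4 to 22.7% of 4 of the 5 Tet3 peaks, 24.4% of the Tet2 peak on exon 1 and 8.4% of the upstream Tdg peak, against a median of 7.19% over all peaks. The other 8 members' peaks held none.

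RefSeq promoter windows, from 250 bp upstream to 50 bp downstream of a start, were matched for all 8 genes and read for the same features. Each of the 8 genes had a single window, so its other starts were not read in this way. An EGR1 peak overlapped the window of Tet2, Tdg and Gadd45g, against 13.0% of all 32817 windows. These windows outnumber the 21938 protein-coding genes, so they are another background than the one used above. Their median CpG ratio was 0.383, while the ratios of the 8 windows ran from 0.508 to 1.17. No window of the 8 held an exact EGR1 form, and 3.47% of all windows did. The looser form GCGNGGGNG occurred 6 times in the Tet2 window and 1 time each in those of Tet1 and Gadd45b, while 12.3% of all windows held it at least 1 time. Of all windows with an exact form 65.4% overlapped a peak, compared with 11.2% of those without. The Tet2 window also had the highest GC content of the 8, 81.3% with a CpG ratio of 1.17. The Tet3 window, at 71.3% GC and a ratio of 0.576, held no peak, and the Tet1 window, at 61.7% and 0.607, held none despite its single loose form. The Tet3 window covered the internal start itself, and the run of Tet3 peaks lay downstream of it.

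The wider demethylation pathway was read by the same rule from a list of 31 further genes, of which 14 had a peak (45.2%, against 39.6% of protein-coding genes) and 13 had one within 2 kb of a TSS (41.9%, against 29.6%). The counts by role rest on few genes each and are given as a description. Of the TET partners and cofactor enzymes 4 of 9 had a peak. Cxxc5, a CXXC protein that binds TET2, had 4 peaks, and the best of them held 2 exact EGR1 forms at an IDR of 7.75e-08. It was centred 1558 bp from a Cxxc5 TSS and 779 bp from that of the neighbouring gene Gm29417. Cxxc4, the related CXXC protein encoded next to Tet2, had 3 peaks, the best of them centred 166.5 bp from a TSS with an IDR of 3.1e-05 and 1 exact form. Dcaf1, a substrate receptor of an E3 ubiquitin ligase that acts on TET proteins, had 2 peaks (lowest IDR 7.51e-05), and Idh1, which makes the 2-oxoglutarate that TET enzymes use, had 1 (0.0031). Of the 14 further genes with a peak, Cxxc4 and Cxxc5 were the 2 whose best peak held an exact form (14.3%), against 16.6% of all peaks.

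Of the 4 readers of 5-hydroxymethylcytosine 3 had a peak, beside 39.6% of all protein-coding genes. Uhrf2 had a peak 84 bp from its TSS with an IDR of 2.18e-07. That of Thyn1 (3.12e-05) was centred 68.5 bp from its TSS and 75.5 bp from that of Acad8, and that of Hmces, 2085.5 bp from its TSS, had an IDR of 0.0115. Of the other glycosylases 2 of 5 had a peak, beside the same share of 39.6%. They were Mbd4, which acts on G:T mismatches at CpG sites (5.62e-07, 14 bp from its TSS and 85 bp from that of Ift122), and Ung, the main uracil glycosylase, with 3 peaks (lowest IDR 5.08e-05). The best Ung peak was 2102.5 bp from an Ung TSS and 65.5 bp from that of Alkbh2.

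Of 5 genes of the later steps of base excision repair 4 had a peak, beside 39.6% of all protein-coding genes. Parp1, the DNA break sensor, had one centred 1.5 bp from a TSS (1.77e-07). Apex1, the abasic site endonuclease, had 2, the best of them (3.16e-07) lying 5846.5 bp from an Apex1 TSS and 49.5 bp from that of Pnp, and Polb (0.00581) and Lig3 (0.00835) had 1 each at a higher IDR than the median of the list. Of the GADD45 partners only Ing1 had peaks, 4 with a lowest IDR of 2.17e-07, 66 bp from its TSS. Other genes of the list, without a peak, were Ogt, Idh2, Qser1, Sall4, Wt1, Wdr76, Neil1, Neil2, Neil3, Xrcc1, Apobec1, Apobec2, Apobec3, Ercc5, Taf12 and Map3k4.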

How the data were processed

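EGR1 ChIP-seq of 2 pooled experiments was analysed from a single deposited list of 12014 peaks. According to the methods and processing notes, the authors trimmed the reads (cutadapt 11.2), mapped them to mm10 with Bowtie (Bowtie2 2.2.9 in the notes), called peaks per replicate with SPP and kept those reproducible between replicates; bedtools 2.26.0 is also named. The deposited value is the IDR of each peak, read like a q-value and at most 2.0%. No read counts were given, so the depth is unknown and no replicate spread, test or p-value could be had. Start positions were taken to follow the BED format, so 1 was added to each for printing.

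Peaks were placed on GENCODE M21 genes, and sequences were read from GRCm38.p6 (76 scaffold peaks left out) or RefSeq promoters, with Python 3.11.15, numpy 2.4.6, pandas 2.3.3 and scipy 1.17.1. The assignment and motif searches were checked on simulated data. Wilson 95% intervals cover counting error only and treat peaks as independent, which neighbouring calls of a run may not be. Alternatives were IDR limits of 0.01 and 0.001, distances of 5 and 20 kb, starts only, overlap in place of the centre, coding starts, mismatches, extension by 100 bp and RefSeq transcripts. All 8 genes were named, with every further gene that had a peak and any other gene with a start nearer to a member's peak. An item of the further list is not reported here. The genes and lists were chosen with earlier results of these data known.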

Additional observations from a re-analysis of the deposited data

How the results depend on the processing

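The count of 5 genes was the same under every alternative except the distance of 20 kb, which gave 7 by adding Tet1 and Smug1. Their peaks numbered 12 to 18, the lowest at 5 kb or when peaks nearer to another gene's start were left out (a Tet2 and a Tdg peak), and the median IDR ranged from 7.08e-05 to 9.29e-05. The share of all protein-coding genes with a peak moved to 37.0% at an IDR of 0.01 or less, 29.0% at 0.001 or less, 36.0% at 5 kb, 45.9% at 20 kb, 37.2% with start windows only, 38.6% with coding starts only and 38.6% for genes in the members' range of lengths. The number of peaks with an EGR1 motif moved from 0 to 1 at 20 kb, to 11 with up to 1 mismatch and to 1 with peaks extended by 100 bp. The further genes with a peak ranged from 10 at an IDR of 0.001 or less to 18 at 20 kb. RefSeq transcripts, an alternative added after seeing the data, gave the same 5 genes and 14 peaks. No paired analysis was possible because the list merges both experiments and the results come from no test. Genes without a peak could not be told from genes whose binding fell under the IDR limit.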
